A study of Mus musculus with 76 samples.

Results

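The granins are acidic proteins stored in the secretory granules of neurons and endocrine cells, and 5 genes of this family were examined: *Chga*, *Chgb*, *Scg2*, *Scg3* and *Vgf*. All 5 were found among the 56980 genes of the count table. They were chosen by name, with their level (counts scaled to the total of the library, CPM), their share of cells with a count and their relation to *Pomc* in these same cells already known, so every level, share, ratio and correlation below is a description and carries no test. The values come from Patch-seq, in which a neuron is recorded with a glass pipette, its content is aspirated and the RNA of that 1 cell is sequenced. The 76 cells were taken from the hypothalamus of male PomcCreERT2;tdTomato;Pomc-eGFP mice. In these animals a tamoxifen-dependent Cre driven by *Pomc* marks permanently, with tdTomato, the cells that use the gene at the time of tamoxifen, which was given at 12 weeks of age, while eGFP reports its use at the time of recording. tdTomato cells with eGFP are called Pomc+ and those without eGFP are called Ghost. Mice received chow diet (CD) or high-fat diet (HFD) for 6 months, with 5 mice per diet, which gave 23 Pomc+ cells and 15 Ghost cells for CD, and 19 of each label for HFD. The labels name no mouse, so each of these 4 groups counts as 1 sample of cells, without replicates.

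Dense-core granules form at the Golgi network, where chromogranin A and chromogranin B (*Chga*, *Chgb*) aggregate with calcium and draw prohormones into the budding granule. Secretogranin II (*Scg2*) is the precursor of secretoneurin, secretogranin III (*Scg3*) binds chromogranin A and holds the aggregate to the granule membrane, and *Vgf*, first found as a gene induced by nerve growth factor, encodes the precursor of several secreted peptides. In Pomc neurons of the arcuate nucleus the same granules carry pro-opiomelanocortin and the enzymes that cut it to alpha-MSH and beta-endorphin.

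Several granin genes are known to hold a cAMP response element near their start, so the sequence upstream of each gene is shown before its values. The promoter table from RefSeq (build GRCm38.p6) matched 4 of the 5 genes, *Chga*, *Chgb*, *Scg2* and *Scg3*. The last 150 bases before the start are printed 5′ to 3′ on the strand of the gene, and capitals mark TGACG, the core of the element, on either strand. They lie at chr12:102554791-102554940 on the plus strand for *Chga*, chr2:132781492-132781641 on the plus strand for *Chgb*, chr1:79440027-79440176 on the minus strand for *Scg2* and chr9:75684057-75684206 on the minus strand for *Scg3*.
Chga: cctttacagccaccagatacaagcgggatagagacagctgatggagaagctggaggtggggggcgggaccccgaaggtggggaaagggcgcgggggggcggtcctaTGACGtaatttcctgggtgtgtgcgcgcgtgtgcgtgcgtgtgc
Chgb: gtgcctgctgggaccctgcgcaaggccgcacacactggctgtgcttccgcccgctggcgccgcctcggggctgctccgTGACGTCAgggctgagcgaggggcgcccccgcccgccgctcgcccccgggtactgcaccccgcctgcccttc
Scg2: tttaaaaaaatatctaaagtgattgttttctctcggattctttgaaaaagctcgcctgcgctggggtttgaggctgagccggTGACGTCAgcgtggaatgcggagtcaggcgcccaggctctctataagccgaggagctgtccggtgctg
Scg3: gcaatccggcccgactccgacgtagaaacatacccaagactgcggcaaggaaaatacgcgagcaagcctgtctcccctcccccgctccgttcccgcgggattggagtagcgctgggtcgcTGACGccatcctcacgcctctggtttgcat

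The full palindrome TGACGTCA, which holds this core once on each strand, stood in *Chgb* and *Scg2*, with its first base at position -72 and -68, counted back from the base before the start as -1. *Chga* and *Scg3* held a single core, beginning at -44 and -30. Of all 32851 promoters in the table, 1.55% held the palindrome and 17.8% held the core on at least 1 strand within the 250 bases before the start. These matches describe the letters of the window only.

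The libraries held 4057 to 1452605 counts each, with group medians from 123528 in Ghost cells on CD to 393797 in Pomc+ cells on HFD, and no molecular identifiers were used, so that counts are of amplified reads. The number of genes counted per cell had group medians from 2453 to 3501. The 7 genes counted in every cell, which include mt-Rnr2, Lars2 and Rps27, took 43.7% of all counts, and their share of a cell's counts fell in rank where granins were high, with Spearman's rho from -0.367 for *Chga* to -0.524 for *Chgb* over 76 cells. Neuron markers (8 genes) had a count in 74 of 76 cells, with a median summed level of 2249 CPM. Summed markers of astrocytes (7 genes, median 369 CPM) and oligodendrocytes (6 genes, median 207 CPM) had counts in 68 cells each, those of microglia (6 genes) in 39 cells, and endothelial, tanycyte and ependymal, and pituitary markers (3 genes each) in 7, 3 and 1 cells. Summed neuron markers ranked with each granin across cells (rho from 0.192 for *Chga* to 0.505 for *Chgb*), whereas the other lists lay between -0.202 and 0.196, except astrocyte markers with *Vgf* (0.308). How far such transcripts entered the pipette with each cell was not tested.

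Every granin was absent from a large part of the cells. *Vgf* had a count in 55 of 76 cells, *Scg2* in 52, *Scg3* in 46, *Chga* in 37 and *Chgb* in 36, whereas *Pomc* had one in 73. Per kilobase of exon (GENCODE M21 models of 2515 to 2973 bases for the granins), *Scg2* was the highest of the 5, with a mean over all cells of 188 CPM per kb. The next 3 lay close together, at 55.7 CPM per kb for *Chgb*, 51.2 for *Scg3* and 46.8 for *Vgf*, and *Chga* was the lowest at 34.5. *Pomc* stood at 4965 CPM per kb. Cells of neighbouring genes in this order overlapped widely. Within groups *Scg2* led in each of the 4, whereas *Vgf* moved from the second place in both groups on CD (87.4 and 58.5 CPM per kb) to the last in both groups on HFD (15.5 and 19.8).

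How many granins a cell showed followed how many genes were counted in it. All 5 granins were counted in 17 cells, 4 in 16, 3 in 13, 2 in 15, 1 in 8 and none in 7 cells. The 17 cells with all 5 had a median of 6102 genes counted and a median *Pomc* level of 11514 CPM. The 7 cells without any had 548 to 1748 genes counted, with a median *Pomc* level of 573 CPM. The median number per cell was 4 in Pomc+ cells on CD, 3 in Ghost cells on CD, 3 in Pomc+ cells on HFD and 2 in Ghost cells on HFD. A deeper library did not always hold a granin: cell 656, a Ghost cell on HFD, had 333785 counts in total and neither a granin nor *Pomc*.

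**Figure D1:**
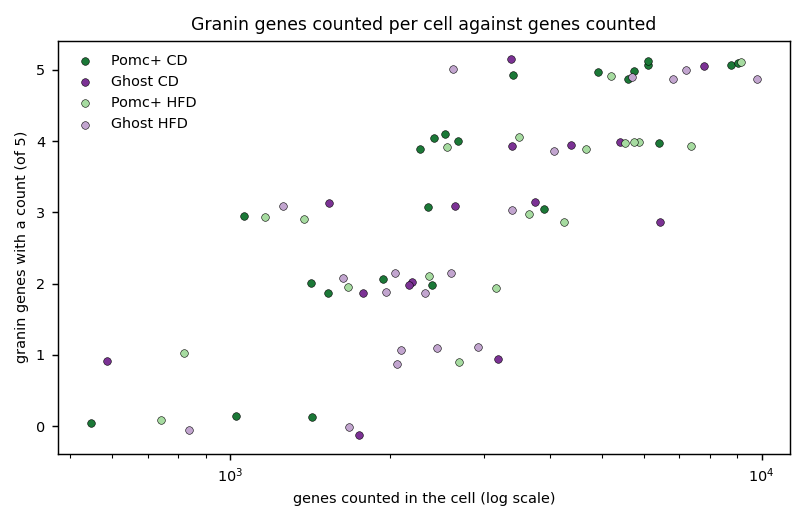
Number of the 5 granin genes with at least 1 count in a cell (y axis, points spread slightly for visibility) against the number of genes counted in that cell (x axis, log scale), coloured by label and diet. The 7 cells without a granin lie at 548 to 1748 genes and the 17 cells with all 5 lie at 2624 to 9808 genes.

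*Vgf* had its highest means on CD, in both labels. In Pomc+ cells on CD its level ran from 0 over a median of 115 to 1476 CPM, with a mean of 260 CPM and a count in 20 of 23 cells (87.0%, exact Clopper-Pearson interval at 95% from 66.4% to 97.2%, for counting error only). In Ghost cells on CD it ran from 0 over 29.4 to 1357 CPM, with a mean of 174 CPM and a count in 11 of 15 cells (73.3%, 44.9% to 92.2%). In Pomc+ cells on HFD it ran from 0 over 24.3 to 142 CPM, with a mean of 46.2 CPM and a count in 14 of 19 cells (73.7%, 48.8% to 90.9%). In Ghost cells on HFD it ran from 0 over 10.6 to 468 CPM, with a mean of 58.9 CPM and a count in 10 of 19 cells (52.6%, 28.9% to 75.6%). The highest cells of both labels were on CD, all 4 groups overlapped at their low ends, and the 4 intervals of the shares overlapped.

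*Scg2* was the most abundant member in every group by mean CPM per kb. In Pomc+ cells on CD it had a median of 449 and a highest value of 2175 CPM, with a mean of 710 CPM and a count in 18 of 23 cells. In Ghost cells on CD the median was 28.4 and the highest value 2997 CPM, with a mean of 623 CPM and a count in 8 of 15 cells. The corresponding values were a median of 100.4, a highest value of 1399 and a mean of 264 CPM in Pomc+ cells on HFD (14 of 19 cells), and 37.1, 1859 and 279 CPM in Ghost cells on HFD (12 of 19 cells). The lowest cell was at 0 in each group. In Ghost cells on CD, 2 of the 8 cells with a count lay above every Pomc+ cell, a count that was not made over all genes. The mean and the median of this group gave different orders against the other groups.

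*Scg3* differed least in the share of cells. It had a count in 13 of 23 Pomc+ cells and 10 of 15 Ghost cells on CD, and in 11 and 12 of 19 cells on HFD. Its mean level was 199 CPM in Pomc+ and 138 CPM in Ghost cells on CD, and 128 and 82.0 CPM on HFD. Highest values ran from 328 CPM in Ghost cells on HFD to 888 CPM in Pomc+ cells on CD, and medians from 8.08 to 119 CPM in the same 2 groups.

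The chromogranins were the rarest. *Chga* had a count in 14 of 23 Pomc+ and 7 of 15 Ghost cells on CD, and in 10 and 6 of 19 cells on HFD, with means of 121, 91.0, 91.3 and 70.8 CPM in that order. *Chgb* had a count in 12 of 23, 6 of 15, 9 of 19 and 9 of 19 cells, with means of 187, 108, 46.2 and 252 CPM. Both had a median of 0 in Ghost cells on either diet. The high mean of *Chgb* in Ghost cells on HFD came for 55.03% from a single cell, number 657, which had 2636 CPM from 34 counts in a library of 12900 counts.

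Thinning each library to 40000 counts left out 8 shallower cells (2 or 3 in 3 of the groups and 1 among Pomc+ cells on HFD). The shares then moved by unlike amounts. That of *Vgf* in Ghost cells on CD went from 73.3% to 58.3%, and that of *Chga* in Pomc+ cells on HFD from 52.6% to 38.9%. *Vgf* was then counted in 81.0% of Pomc+ and 58.3% of Ghost cells on CD, and in 66.7% and 41.2% on HFD. *Scg2* was counted in 81.0% and 6 of 12 cells on CD and in 72.2% and 70.6% on HFD, in the same order of labels. Each share at this depth lay inside the interval of the share before thinning. These intervals are wide and the thinned shares come from the same cells, so this does not show that the shares are stable.

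**Figure D2:**
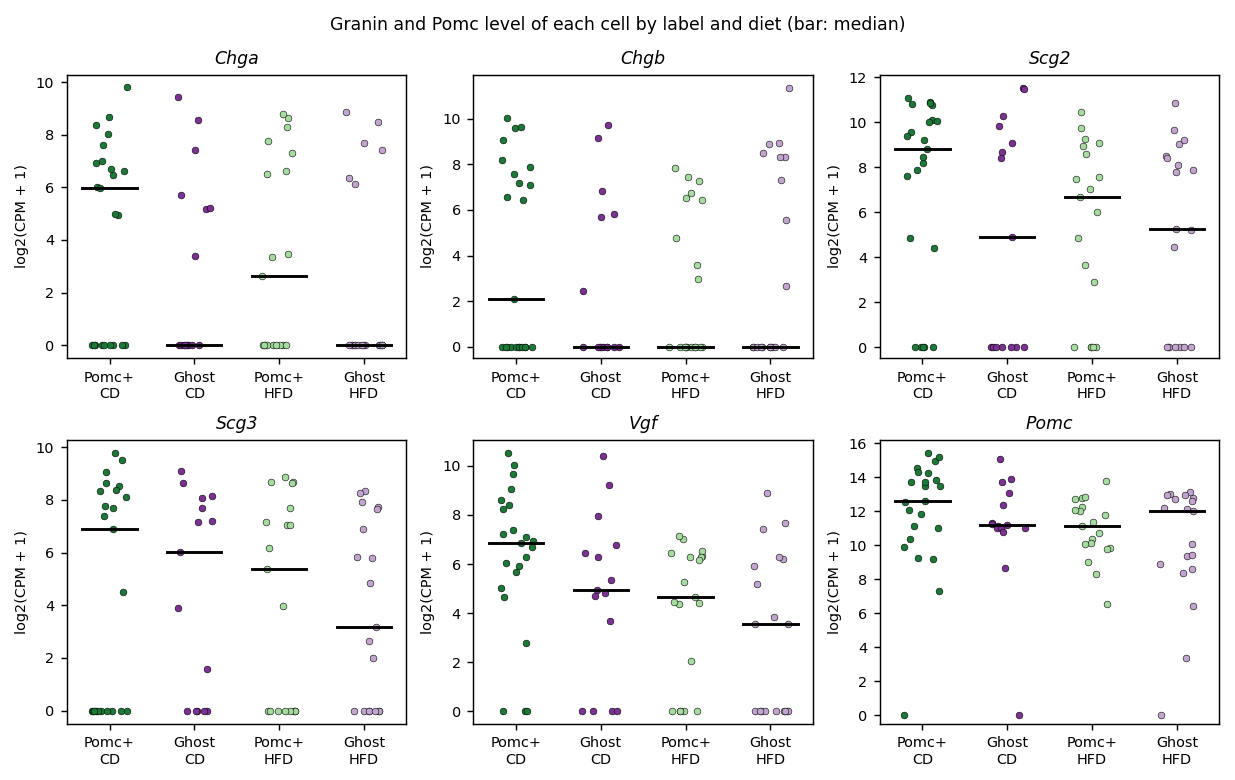
Level of each granin and of Pomc in every cell, as log2(CPM + 1) on the y axis, by label and diet on the x axis. Each point is a cell and each bar the group's median, and the points at 0 are cells without a count. The upper end of Vgf is lower on HFD, at 142 CPM in Pomc+ and 468 CPM in Ghost cells, than on CD, at 1476 and 1357 CPM.

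A few cells carried the highest levels of several granins at once. Cell 687, labelled Ghost on CD, was among the 3 highest cells for all 5 granins (*Chga* 687, *Chgb* 842, *Scg2* 2886, *Scg3* 546 and *Vgf* 1357 CPM) and held the third-highest *Pomc* level of the 76 cells (34418 CPM). Cell 660, a Pomc+ cell on CD, was among the 3 highest for 4 of them and had the highest *Pomc* level (43974 CPM). Cell 687 supplied 50.4% of the summed *Chga*, 51.7% of the *Chgb* and 51.99% of the *Vgf* level of the 15 cells. Its label rests on the absence of eGFP at the time of recording, which the counts do not measure.

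The first comparison of the design sets the diets against each other in Pomc+ cells. All 5 granins had a lower mean on HFD than on CD, and 3 were past 2-fold: *Vgf* fell by 2.49, *Chgb* fell by 2.02 and *Scg2* fell by 1.43 on the log2 scale of the ratio of mean CPM. *Scg3* differed by -0.64 and *Chga* by -0.41. Of the 1583 genes counted in at least 38 cells, 7.96% were at least 2-fold lower and 7.39% at least 2-fold higher in this comparison, and their median log2 ratio was -0.048. That set holds *Scg2*, *Scg3* and *Vgf* only. In a broader set that holds all 5 granins (3 or more cells with 5 or more counts), 20.5% were at least 2-fold lower. *Pomc* itself fell by 1.77. With the normalized counts of the authors 4 granins were past 2-fold, since *Scg3* went to -1.40, while the median of the 1583 genes moved to -0.46.

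For some granins the highest cells on CD had no match on HFD. For *Vgf*, 9 of the 23 Pomc+ cells on CD lay above the highest of the 19 cells on HFD, and only 2 cells on HFD lay above the median on CD. For *Chgb* 6 of 23 and for *Scg2* 5 of 23 cells on CD lay above every cell on HFD, whereas for *Scg3* there were 3 and for *Chga* 1. For *Pomc* there were 7 of 23, and the same count over all genes was not made. No cell on HFD lay above all cells on CD for any of the 5. The median log2 ratio over the 5 granins was -1.43, and it stayed between -1.82 and -1.29 when any 1 cell was left out. *Vgf* stayed between -2.67 and -2.15, and *Chga* between -0.75 and 0.078, reaching its highest value without cell 660.

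The cell numbers of the labels fall into 8 runs of a single diet each, so that a run and the diet cannot be told apart. The mean of *Vgf* in Pomc+ cells was 177, 421, 344 and 87.7 CPM in the 4 runs on CD (3, 8, 4 and 8 cells) and 59.97, 23.2, 0 and 41.5 CPM in the 4 runs on HFD (10, 3, 1 and 5 cells). Each mean on CD was thus above each mean on HFD for *Vgf*. By medians the runs overlapped, with 45.7 CPM in cells 699 to 712 on CD and 77.7 CPM in cells 637 to 657 on HFD. For *Scg2* the means of the runs overlapped, from 284 to 1447 CPM on CD and from 0 to 353 CPM on HFD. The last run on CD, cells 699 to 712, was unlike the other runs on CD: its 8 Pomc+ and 4 Ghost cells had no count of *Chgb*, and the mean of *Pomc* in its Pomc+ cells was 2053 CPM, against 15020 to 22214 CPM in the other 3. Without any 1 run the median over the 5 granins lay between -1.83 and -1.01.

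**Figure D3:**
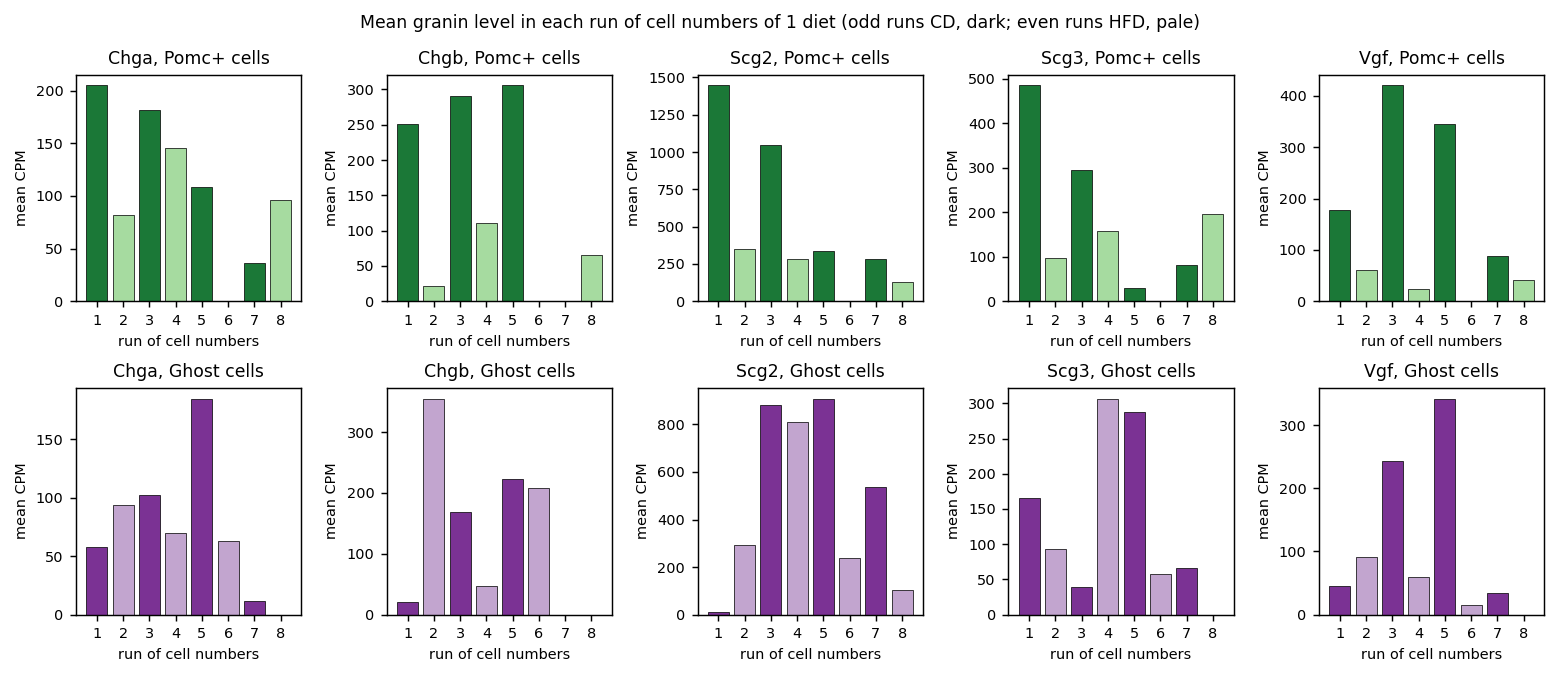
Mean CPM of each granin (y axis) in the 8 runs of consecutive cell numbers (x axis), for Pomc+ cells in the upper and Ghost cells in the lower row. Bars are means over the 1 to 11 cells of a run. For Vgf in Pomc+ cells the 4 runs on CD (dark bars, 87.7 to 421 CPM) stand above the 4 runs on HFD (pale bars, 0 to 59.97 CPM), whereas in Ghost cells the runs overlap.

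In Ghost cells the same comparison of diets was mixed. *Vgf* fell by 1.56 and *Scg2* fell by 1.16 on the log2 scale, *Scg3* differed by -0.75 and *Chga* by -0.36, and *Chgb* was higher by 1.22. The background was 10.9% of genes at least 2-fold lower and 9.41% at least 2-fold higher, with a median log2 ratio of -0.056. Single cells decided several of these values. *Vgf* went to -0.60 without cell 687 and to -2.27 without cell 655 of the Ghost cells on HFD, *Chgb* to 0.14 without cell 657, and *Chga* to 0.55 without cell 687. *Scg2* was lower on HFD by its mean and higher by its median (0.38 on the log2 scale). *Pomc* differed by -0.77.

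Markers of microglia moved with diet beside the granins. Their summed mean was 110 CPM in Pomc+ and 79.6 CPM in Ghost cells on CD, against 908 and 868 CPM on HFD, with a range from 0 to 1110 CPM on CD and from 0 to 8268 CPM on HFD. Of the 6 markers, *P2ry12*, *Csf1r* and *Tmem119* were at 0 in Pomc+ cells on CD, *P2ry12* was at 0 in Ghost cells on CD, and none was at 0 in either group on HFD. Across all cells the summed level ranked with the 5 granins at rho from -0.202 for *Scg2* to 0.037 for *Chga*. Summed oligodendrocyte markers had a mean of 253 CPM in Pomc+ cells on CD and 726 CPM on HFD, with highest values of 890 and 5758 CPM. In Ghost cells their means were 297 and 381 CPM. The part of either list in the difference between diets was not tested.

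The comparison of labels sets traced cells without eGFP against those with it. Astrocyte markers moved with the label: their summed mean was 861 CPM in Pomc+ and 488 CPM in Ghost cells on CD, and 1105 and 261 CPM on HFD, with highest values of 4307, 2110, 3644 and 1431 CPM. Of the 7 markers *Aldh1l1* was at 0 in Ghost cells on CD, and none was at 0 in the other groups. Their part in the difference between labels was not tested. On CD the Ghost mean was below the Pomc+ mean for all 5, by less than 2-fold: *Chgb* differed by -0.79, *Vgf* by -0.58, *Scg3* by -0.53, *Chga* by -0.42 and *Scg2* by -0.19 on the log2 scale, beside -0.89 for *Pomc*. No granin passed 2-fold, whereas 10.4% of genes were at least 2-fold lower and 9.98% at least 2-fold higher, with a median of 0.015. The medians of the groups lay further apart than their means for *Vgf* (-1.96) and *Scg2* (-3.98), and only 3 of 15 Ghost cells lay above the Pomc+ median of *Vgf* whereas 18 of 23 Pomc+ cells lay above the Ghost median.

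The size of this difference depended on the scaling. With the normalized counts of the authors all 5 granins were past 2-fold lower in Ghost cells, from -1.41 for *Scg2* to -1.98 for *Chgb*, but under this scaling the median of the 1583 genes moved to -0.75 as well. Relative to it, the median over the 5 granins was -0.89, against -0.54 with CPM. Without cell 687 *Chgb* stood at -1.74, *Vgf* at -1.54 and *Chga* at -1.33. Without cell 660 *Chga* turned to 0.073 and *Scg2* stood at -0.048, and leaving out 1 run turned *Scg2* to 0.37 (cells 630 to 636) and *Scg3* to 0.23 (cells 658 to 669), so that the direction of these 3 depended on single cells or runs. Within single runs on CD the ratio of *Vgf* was -1.99, -0.79, -0.0094 and -1.39, so that Ghost cells were lower in 3 runs and level in the run that holds cell 687, cells 684 to 692. In that run *Scg3* (3.28), *Scg2* (1.43) and *Chga* (0.77) were higher in Ghost cells, and *Scg2* was also higher in them within cells 699 to 712 (0.92).

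On HFD the granins did not share a direction between labels. The means of *Pomc* in Ghost and Pomc+ cells differed by 0.11 on the log2 scale. Its median was 4171 CPM in Ghost and 2206 CPM in Pomc+ cells, with a count in 18 and 19 of 19 cells. *Chgb* was higher in Ghost cells by 2.45 on the log2 scale and by 1.37 without cell 657. *Vgf* stood at 0.35, which turned to -0.35 without cell 655, *Scg2* at 0.08, *Chga* at -0.37 and *Scg3* at -0.64. By group medians the Ghost cells were lower for *Vgf* (-1.20), *Scg2* (-1.44) and *Scg3* (-2.32), which turned the direction of *Vgf* and *Scg2*. In this comparison 11.2% of genes were at least 2-fold lower and 9.54% at least 2-fold higher, with a median of 0.017. For *Chgb* 6 of 19 Ghost cells lay above the highest Pomc+ cell at 227 CPM, and the same count over all genes was not made. Both labels had a median of 0 for *Chgb*, with a count in 9 of 19 cells each. On HFD 2 runs held at least 3 cells of each label, and in the larger, cells 637 to 657, the ratio of *Chgb* was 4.04, that of *Vgf* 0.60 and that of *Scg2* -0.27. In the other, cells 713 to 720, the 3 Ghost cells had no count of *Chgb*, *Vgf*, *Chga* or *Scg3*, against means of 66.1, 41.5, 96.6 and 196 CPM in the 5 Pomc+ cells. Those 3 libraries held 12847, 107833 and 79702 counts, against 203937 to 472232 in the 5 Pomc+ cells. The part of depth in this difference was not tested. Without cells 637 to 657 *Chgb* stood at 0.58 and *Vgf* turned to -1.05. Whether the difference between labels itself changed with diet was not tested, because the groups have no replicates.

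**Figure D4:**
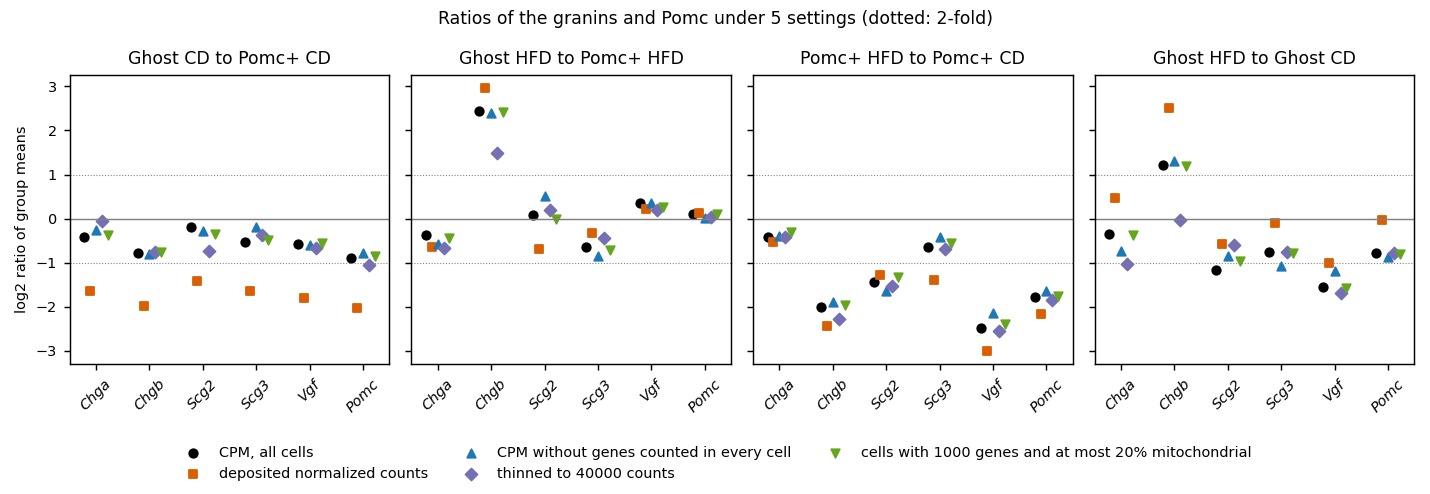
Log2 ratio of group means (y axis) for each granin and Pomc (x axis) in the 4 comparisons. Symbols give CPM over all cells and 4 other settings, and dotted lines mark 2-fold. In Pomc+ cells Vgf, Chgb and Scg2 lie below the lower dotted line in all 5 settings, whereas Chgb in Ghost cells on HFD against CD spans 2.52 to -0.024.

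Granin and *Pomc* levels ranked together from cell to cell. Spearman's rho with *Pomc* over 76 cells was 0.594 for *Vgf*, 0.588 for *Chgb*, 0.548 for *Chga*, 0.495 for *Scg3* and 0.368 for *Scg2*. All 5 were at 0.3 or above, as were 42% of the 1582 genes other than *Pomc* counted in at least 38 cells, whose median was 0.274. That set holds *Scg2*, *Scg3* and *Vgf*, but not *Chga* and *Chgb*, which were counted in fewer cells. Among the 1582 genes 11 ranked higher with *Pomc* than *Vgf* did and 13 higher than *Chgb*, whereas 360 ranked higher than *Scg2*. The cells share mice, runs, depth and the scaling by the 7 dominant genes, and each granin also ranked with the number of genes counted (0.375 for *Vgf* to 0.610 for *Scg3*). Given the number of genes counted, the partial rank correlation with *Pomc* was 0.507 for *Vgf*, 0.467 for *Chgb*, 0.374 for *Chga*, 0.282 for *Scg3* and 0.160 for *Scg2*. The median of the 1582 genes was then 0.105.

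The relation was not alike in the 4 groups. In Pomc+ cells on CD rho with *Pomc* was 0.801 for *Chgb*, 0.777 for *Vgf*, 0.734 for *Scg3*, 0.667 for *Scg2* and 0.625 for *Chga* (23 cells). In Pomc+ cells on HFD it was 0.493 for *Chgb*, 0.340 for *Scg3*, 0.178 for *Chga*, 0.025 for *Vgf* and -0.042 for *Scg2* (19 cells). In Ghost cells the 5 values ran from 0.094 to 0.627 on CD (15 cells) and from 0.412 to 0.638 on HFD (19 cells), and *Vgf* gave the highest value in both. The 23 cells include the 8 of cells 699 to 712, which had no count of *Chgb*. Their mean of *Pomc* was 2053 CPM, against 15020 to 22214 CPM in the other runs on CD. The values within groups were not adjusted for run or for the number of genes counted. The difference between groups was not tested.

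**Figure D5:**
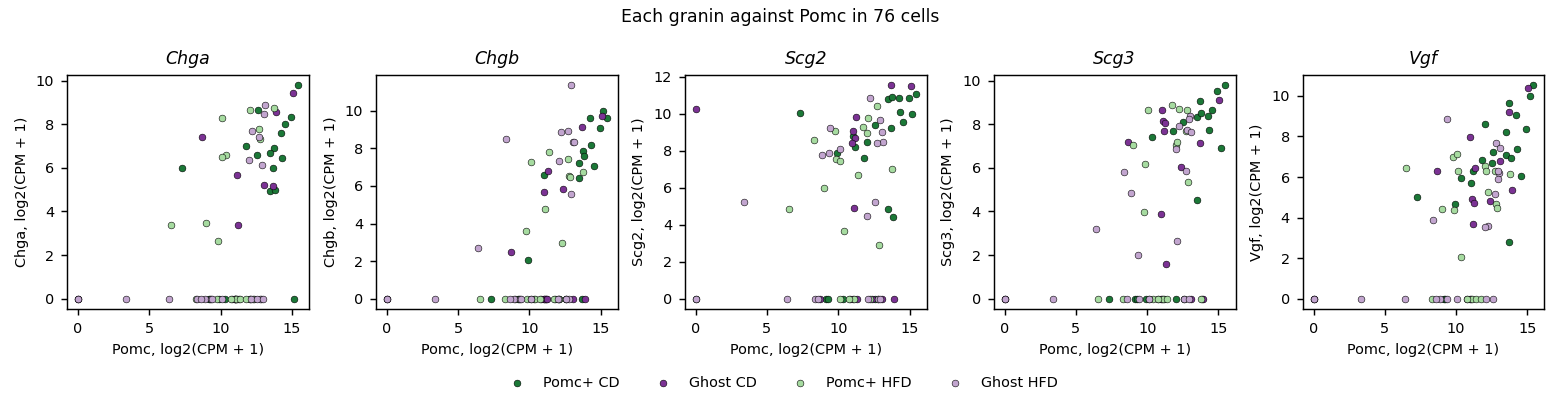
Each granin (y axis, log2(CPM + 1)) against Pomc (x axis, log2(CPM + 1)) in 76 cells, coloured by label and diet. The cells of highest Pomc, most of them Pomc+ cells on CD, are also high in several granins, though not in all: cell 686, at rank 2 for Pomc, has no count of Chga. Points along the lower edge are cells with no count of the granin. Spearman's rho runs from 0.368 for Scg2 to 0.594 for Vgf.

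Expressed per 1000 *Pomc* counts of the same cell, a ratio that needs no scaling to the library, the granins parted. In cells with at least 20 *Pomc* counts the median of *Vgf* was 24.1 in Pomc+ cells on CD (21 cells), 11.5 in Ghost cells on CD (14 cells), 9.70 in Pomc+ cells on HFD (18 cells) and 3.88 in Ghost cells on HFD (16 cells). The quartiles of *Vgf* overlapped between diets, from 8.36 to 31.8 in Pomc+ cells on CD and from 2.51 to 35.01 on HFD. *Scg2* went the other way in Pomc+ cells, with a median of 53.5 on CD and 120 on HFD, as did *Scg3* (10.7 and 23.7) and *Chga* (4.29 and 12.7), whereas *Chgb* stood at 5.63 and 0.704. By the ratio of the group means of CPM, in Pomc+ cells *Vgf* went from 22.2 on CD to 13.9 on HFD and *Scg2* from 57.03 to 79.4. Over the summed counts of these cells *Vgf* was nearly level, at 16.4 and 15.8. In the means of CPM of Pomc+ cells the fall of *Scg2* with diet was smaller than that of *Pomc*, and the fall of *Vgf* larger. Between labels the medians of *Vgf* were lower in Ghost cells on both diets, but the other measures were higher in them. By the ratio of the group means of CPM, *Vgf* in Ghost cells stood at 27.6 on CD and 16.1 on HFD. Over the summed counts it stood at 31.97 and 16.2 in Ghost cells.

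The granins ranked with each other as well. Over the 10 pairs rho ran from 0.289 for *Chgb* and *Scg2* to 0.508 for *Chga* and *Vgf*, with a median of 0.406. Given the number of genes counted the median was 0.187, and only *Chga* with *Vgf* (0.386) and *Chgb* with *Vgf* were at 0.3 or above. Within Pomc+ cells on CD the median was 0.572 and all 10 pairs were at 0.387 or above, whereas within Pomc+ cells on HFD it was 0.175. Which pair was lowest depended on the setting. After thinning to 40000 counts it was *Scg3* with *Vgf* (0.239), and *Chgb* with *Scg2* stood at 0.353. Within Pomc+ cells on CD *Chgb* with *Scg2* stood at 0.662.

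The 3 genes most like each granin over the 76 cells, by Spearman's rho among genes counted in at least 38 cells, were different for each member apart from *Pomc*. *Vgf* was closest to *Bsg* (0.635), which encodes the membrane glycoprotein basigin, *Tmem130* (0.628) and *Pomc*. *Chgb* was closest to *Ndfip1* (0.612), an adaptor of ubiquitin ligases, *Rtn1* (0.610), a reticulon of the endoplasmic reticulum, and *Pomc*. *Chga* was closest to *Tmem59l* (0.672), *Saraf* (0.672), a regulator of store-operated calcium entry, and *Ergic3* (0.571).

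*Scg2* had *Syt4* (0.643), a synaptotagmin of dense-core vesicles, *Ggnbp2* (0.609) and *Smarca2* (0.594), an ATPase of chromatin remodelling, as its closest genes. *Scg3* had *Pld3* (0.597), *Lrpap1* (0.588), a chaperone of lipoprotein receptors, and *Ptprn* (0.582), a transmembrane protein of the granule. Given the number of genes counted, these 15 values fell to between 0.287 for *Pld3* and 0.559 for *Bsg*.

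Other genes of the granule pathway differed between diets in either direction. In Pomc+ cells 7.96% of the 1583 background genes were at least 2-fold lower on HFD and 7.39% at least 2-fold higher. Of 6 granin-like and processing genes, 3 were counted in at least 38 cells, and of these *Scg5*, which encodes the chaperone of a prohormone convertase, was past 2-fold lower on HFD in Pomc+ cells (-2.17, from 307 to 68.3 CPM). *Cpe*, the carboxypeptidase that trims cut peptides, differed by -0.60 and *Pcsk1n*, which encodes the convertase inhibitor proSAAS, by 0.42. Of 14 genes of the granule membrane and release 4 were counted in at least 38 cells, with *Syt4* (-1.06) past 2-fold lower, *Ptprn* at -0.30, and *Cadps* (0.87) and *Baiap3* (0.96) above 0. Their median was 0.28 in Pomc+ and -0.13 in Ghost cells. In Ghost cells *Syt4* (-1.68) was past 2-fold lower and *Baiap3* (1.23) past 2-fold higher, beside 10.9% and 9.41% of background genes.

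Of 10 peptide genes *Pomc* and *Cartpt* were counted in at least 38 cells, and *Cartpt*, which encodes the CART peptides, differed by -0.67 in Pomc+ and -0.51 in Ghost cells between diets. Of 8 activity-linked genes *Fos* alone was counted in at least 38 cells; it was higher on HFD in Pomc+ cells (1.20) and ranked with the 5 granins at rho from 0.081 for *Vgf* to 0.237 for *Chga*. Of 10 synaptic vesicle genes 6 were counted in at least 38 cells, with a median of -0.48 in Pomc+ cells between diets. Of these 1 was past 2-fold, *Sv2a*, which was higher on HFD (1.27). The shares of all background genes in this comparison were 7.96% lower and 7.39% higher.

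Between labels only list genes counted in at least 38 cells were compared, here and in the medians and correlations that follow. List genes counted in fewer cells, several of them past 2-fold, were left out. Among those compared 2 values passed 2-fold: *Sv2a* (1.16) on CD and *Syt4* (-1.11) on HFD, each in Ghost against Pomc+ cells. Of all background genes 10.4% were lower and 9.98% higher on CD, and 11.2% and 9.54% on HFD. On CD the medians were -0.61 for the granin-like and processing genes, -0.39 for granule membrane and release, -0.65 for peptides, -0.17 for *Fos* and -0.094 for synaptic vesicle genes. On HFD they were 0.062, -0.59, -0.067, -0.64 and -0.36. Rank correlation with *Pomc* was at 0.3 or above for 3 of 3, 4 of 4, 1 of 1, 0 of 1 and 4 of 6 members of the 5 lists in this order, with *Pomc* left out of its own list, beside 42% of all genes. *Cartpt* (0.760) ranked higher with *Pomc* than any granin did. *Ptprn* (0.620), the synaptic vesicle gene *Syp* (0.587) and *Scg5* (0.571) ranked with it about as high as the granins, so such values were not limited to granule genes.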

How the data were processed

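Patch-seq libraries of 76 neurons (SMART-Seq Single Cell kit, Nextera XT, paired-end NovaSeq reads) were analysed. The authors deposited raw counts per Ensembl gene, as whole numbers without normalization, and a normalized signal, found by test to be each raw count over a single size factor of its cell. The submitters' processing notes name cutadapt 2.10, STAR 2.7.5a and DESeq2, and the builds GRCm38 and mm10. The counting program and annotation are not given in the sources used here, and 4907 of the 56980 identifiers are not in GENCODE M21, from which exon lengths were taken. Symbols matched 52073 identifiers, and 36.6% of all counts fell on genes that had no symbol.

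Counts were scaled to CPM with all genes in the total. Groups came from the labels and were compared by the log2 ratio of mean CPM, by shares of cells with exact Clopper-Pearson intervals at 95%, and by Spearman's rho. Intervals cover counting error only, and a count of 0 allows up to 3 counts. Cells are not replicates of a group, so no p-value, standard error or SD was made from them. No cell was left out, and no doublet caller was run on the hand-patched cells. Past 2-fold was the call for ratios. The background was the 1583 genes with a count in at least 38 cells. Genes were named by rule: the members and *Pomc*, the 3 genes with the highest rho with each member among background genes with a symbol, and up to 4 examples of each list (granin-like and processing, granule membrane and release, peptides, activity-linked, synaptic vesicle, and markers of neurons, astrocytes, oligodendrocytes, microglia, endothelium, tanycytes and ependyma, and pituitary). 1 gene of the synaptic vesicle list is not reported here. The members and lists were chosen with earlier results of these data known. Single cells named by number were chosen after their values were seen.

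Alternatives were the deposited normalized signal, CPM after removal of the 7 genes present in all cells, thinning to 40000 counts, cells of 1000 or more genes and no more than 20% mitochondrial counts (5 cells fail), group medians, leaving out each cell, and values within runs of cell numbers. Leaving out whole runs and the ratio to *Pomc* counts were chosen after seeing the data. Scripts ran in Python with numpy, pandas and scipy and were tested on simulated data.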

Additional observations from a re-analysis of the deposited data

How the results depend on the processing

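In Pomc+ cells the median log2 ratio of the 5 granins on HFD to CD moved by less than 1.5-fold under each alternative that gave a value (-1.83 to -1.01, main value -1.43). The median of Ghost to Pomc+ cells on CD (main value -0.53) was -1.64 with the normalized counts, -1.99 within cells 630 to 636, 0.77 within cells 684 to 692 and -1.12 without that run. Leaving out single cells moved it from -1.33 to -0.23. The median of Ghost to Pomc+ cells on HFD (0.08) was -1.05 without cells 637 to 657. The median of HFD to CD in Ghost cells (-0.75) was -0.094 with the normalized counts and -0.027 without cells 684 to 692.

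For single granins in Ghost cells, HFD to CD, *Chgb* turned to -0.024 after thinning, which leaves out cell 657 by its construction, and *Scg2* turned to 0.38 by group medians; the cause of the latter was not tested. The median rho with *Pomc* was 0.178 within Pomc+ cells on HFD, where that of *Scg2* turned to -0.042. The median rho between granins was 0.187 given the number of genes counted and 0.175 within Pomc+ cells on HFD. All 60 alternative shares of cells with a count stayed inside the interval of the main share. The intervals are wide and the alternatives use the same cells, so this does not show that the shares are stable. With the broader background (3 or more cells with 5 or more counts), 20.5% to 31.6% of genes were at least 2-fold lower and 20.2% to 27.2% higher in the 4 comparisons, against 7.96% to 11.2% and 7.39% to 9.98%. Ratios of group medians were not run where a median was 0. Depth limits what a 0 means: in the shallowest library, of 4057 counts, a single count stands for 246 CPM, which is above the mean over all cells of each granin but *Scg2*.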
